A study of Mus musculus with 18 samples.

Results

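Transcripts of 7 genes that write, copy or remove DNA methylation were measured in mouse regulatory T (Treg) cells from 6 organs. The 7 genes are Dnmt1, Uhrf1, Dnmt3a, Dnmt3b, Tet1, Tet2 and Tet3, taken by symbol from a list of names and not by their values, out of 55487 gene IDs in the tables. All 7 were found, and all 7 passed the filter on low values (an organ mean of 1 TPM or more, TPM being the length-normalised share of a library's transcripts). Treg cells, the Foxp3-expressing CD4+ T cells, restrain immune responses. The cells came from wild-type mice that received no treatment, and were sorted freshly from peripheral blood, bone marrow, lung, liver, spleen and lymph node. Each organ gave 3 poly(A) RNA libraries, 18 in all. No group carries a transgene, deletion or agent per the labels. The age and sex of the mice, the sorting gates, the pooling of animals and the origin of the 3 replicates of an organ are not given in the sources used here, so p-values measure the spread between these libraries, which may be technical.

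Cytosine methylation at CpG sites is copied to the new strand after each round of DNA replication. DNMT1 is the methyltransferase that does the copying, and UHRF1 brings it to hemimethylated DNA behind the replication fork. DNMT3A and DNMT3B methylate CpG sites that carried no mark before. The TET1, TET2 and TET3 dioxygenases oxidise 5-methylcytosine in a reaction that uses 2-oxoglutarate, after which the mark is lost by dilution or is excised by the glycosylase TDG and base excision repair. In Treg cells, stable Foxp3 expression is known to go with demethylation of an intronic enhancer of Foxp3, in which TET enzymes take part, while DNMT1 and UHRF1 are known to be needed for Treg function and proliferation. The tables hold RNA levels and carry no measurement of methylation.

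The labelled cell type was checked on its markers. Foxp3 had a mean of at least 88.6 TPM in every organ, and all 20 T cell markers had a mean of at least 1 TPM in each. The summed T cell markers ran from 5160 to 5260 TPM in the blood libraries up to 12000 to 12100 TPM in lymph node. RNA of other cells was present as well. Erythroid markers (8 genes) summed to 10900 to 12000 TPM in liver, above the T cell sum there of 9640 to 10100 TPM. They were at 6520 to 6720 TPM in bone marrow, 74.1 to 77 TPM in lymph node and 1430 to 3000 TPM elsewhere. The summed markers of mature neutrophils and monocytes (14 genes) were at 39400 to 39700 TPM in bone marrow and 28200 to 28900 TPM in blood, against 51.3 to 1880 TPM in the other organs, and none of the 14 was listed at 0 throughout an organ. Granulocyte and monocyte progenitor markers (8 genes) reached 1610 to 1620 TPM in bone marrow and at most 26.4 TPM elsewhere. Ctsg was listed at 0 in all spleen libraries, Ctsg, Cebpe and Epx in all liver libraries, and Epx in all lung libraries. Platelet (7 genes) and cytotoxic cell (8 genes) markers were highest in blood, at 2210 to 2240 and 558 to 610 TPM. B cell markers (8 genes) were at 511 to 633 TPM in spleen, bone marrow and blood and at most 162 TPM elsewhere. The part of these other cells in the levels of the 7 genes was not tested. One read of a 1 kb transcript was worth 0.379 TPM on average in liver, 0.232 in lung, 0.155 in spleen, 0.114 in bone marrow, 0.0868 in lymph node and 0.0814 in blood, so values in liver and lung rest on the fewest reads. In a bulk library, fewer cells of a type and less RNA per cell cannot be told apart.

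The genes lie on 7 chromosomes. In GENCODE M21 on GRCm38 (the mm10 build), Dnmt1 (ENSMUSG00000004099) spans chr9:20907209-20959888 on the minus strand and Uhrf1 (ENSMUSG00000001228) chr17:56303321-56323486 on the plus strand. Dnmt3a (ENSMUSG00000020661) spans chr12:3806007-3914443 and Dnmt3b (ENSMUSG00000027478) chr2:153649450-153687730, both on the plus strand. The Tet genes are on the minus strand, Tet1 (ENSMUSG00000047146) at chr10:62804570-62908996, Tet2 (ENSMUSG00000040943) at chr3:133463679-133545139 and Tet3 (ENSMUSG00000034832) at chr6:83362373-83459084. A pair of antisense genes share exon bases with members: Dnmt3aos shares 133 bases with Dnmt3a and was listed at 0.79 TPM or less, and Gm42567 shares 43 bases with Tet2 and was listed at 0.93 TPM or less. The members have between 5 (Tet3) and 18 (Dnmt3a) annotated transcripts, and the deposited value is a gene total over them.

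As deposited, Dnmt1 and Uhrf1, the maintenance pair, correlated more closely with the S phase genes than the other 5 members did (values below). The RefSeq promoter windows of these genes (GRCm38.p6, 250 bases before to 50 after a start site) were therefore read for E2F-type motifs, the letters bound by the E2F factors that drive S phase genes. The motif was TTTCCCGC, TTTGGCGC, TTTCGCGC or TTTGCCGC on either strand. It is held by 2.26% of the 32851 promoter windows in the RefSeq table, and by at least 1 window of 2.6% of the 27025 genes. A single start site of Dnmt1 (chr9:20952574-20952873, minus strand) and of Uhrf1 (chr17:56304063-56304362, plus strand) held it. The windows are printed below in the direction of transcription, with the motif letters in capitals.

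Dnmt1: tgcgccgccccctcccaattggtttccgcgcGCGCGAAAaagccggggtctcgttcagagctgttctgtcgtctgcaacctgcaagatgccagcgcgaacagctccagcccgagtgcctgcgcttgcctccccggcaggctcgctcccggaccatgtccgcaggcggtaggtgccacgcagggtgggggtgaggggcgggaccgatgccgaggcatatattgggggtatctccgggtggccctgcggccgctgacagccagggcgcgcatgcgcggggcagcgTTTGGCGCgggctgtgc

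Uhrf1: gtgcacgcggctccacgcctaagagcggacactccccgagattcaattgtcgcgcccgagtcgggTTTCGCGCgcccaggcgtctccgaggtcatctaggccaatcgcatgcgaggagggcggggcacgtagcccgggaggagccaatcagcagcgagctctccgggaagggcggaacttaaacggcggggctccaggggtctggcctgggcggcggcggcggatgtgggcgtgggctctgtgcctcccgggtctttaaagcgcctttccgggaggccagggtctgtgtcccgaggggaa

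In the Dnmt1 window, GCGCGAAA, which reads TTTCGCGC on the opposite strand, began at position -219 from the start site, and TTTGGCGC began at position 33 after it. In the Uhrf1 window, TTTCGCGC began at position -185. Each window held 33 CpG sites, against a median of 7 over all windows. Each form of the motif contains CG, and its share among windows of like CpG content was not computed. Both windows also held CCAAT (in 37.4% of all windows) and GGGCGG (35.7%) on either strand. Neither held TGACGTCA (1.79%) or CCGGAAGT (3.89%). The other start sites of Dnmt1 and Uhrf1 and the windows of the other 5 members had no E2F-type letters. A match is a description of the sequence and not a measured binding site.

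Of the 7 members, 5 differed among the 6 organs in limma's moderated F test on log2(TPM + 1), at an adjusted p under 0.05 over 16694 genes tested. The background was high, since 68% of all tested genes passed the same test. Those that passed were Dnmt1 (adjusted p = 5.21e-09), Tet3 (1.43e-07), Uhrf1 (7.38e-06), Tet2 (0.000522) and Dnmt3a (0.000954). Dnmt3b (0.0892) and Tet1 (0.344), the lowest expressed members, did not pass. Over the 15 pairs of organs, Tet3 passed in 13, Dnmt1 in 11, Uhrf1 in 9, Tet2 in 7, Dnmt3a in 6, Dnmt3b in 1 and Tet1 in none. That made 47 of 105 combinations of a member and a pair, where 33.8% of such combinations passed over all tested genes.

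**Figure D1:**
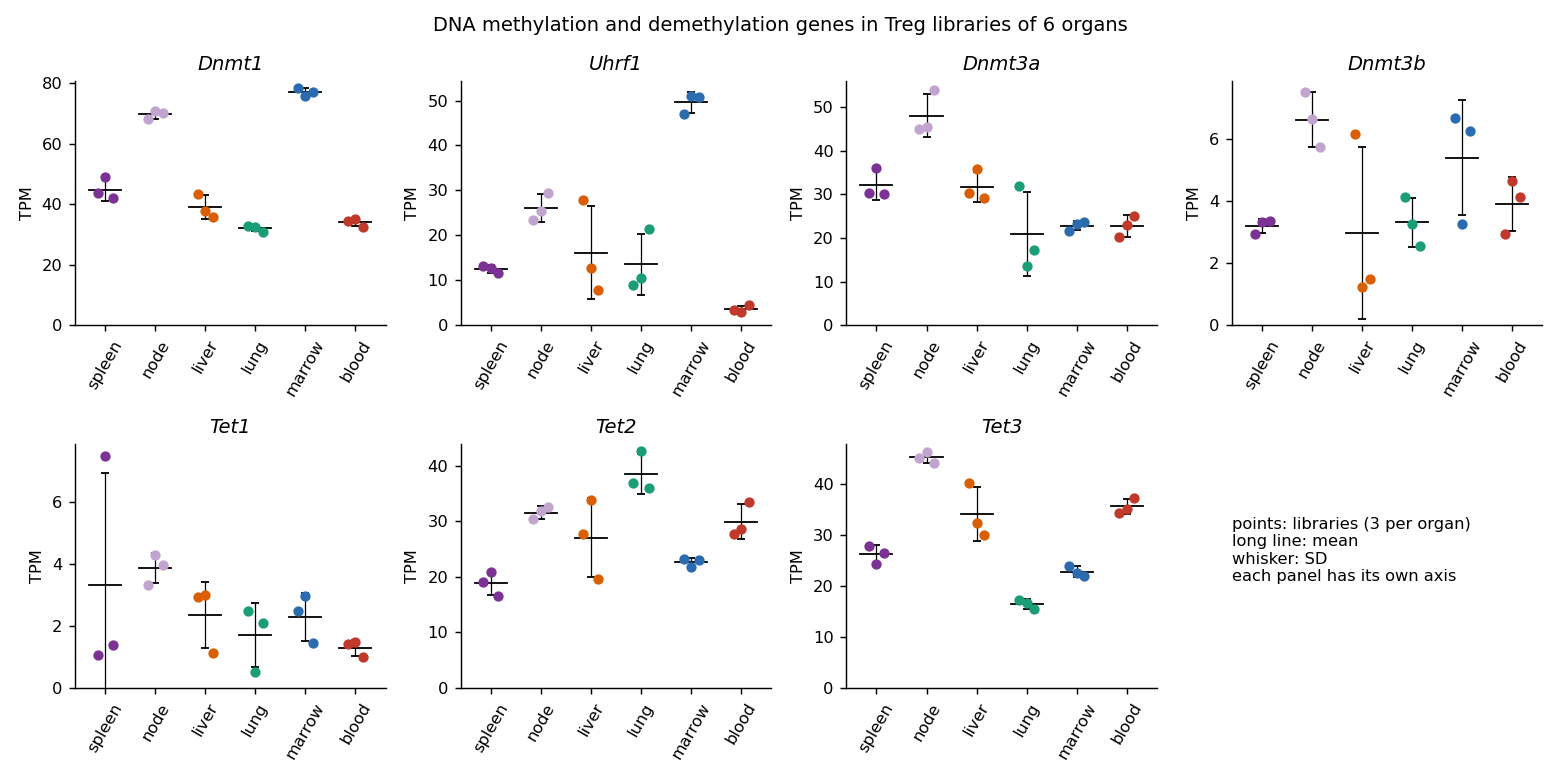
Level in TPM (vertical axis, own scale per gene) of each of the 7 genes in the 18 libraries, by organ. Points are libraries, long lines the mean of 3 and whiskers the SD (the lower whisker of Tet1 in spleen is cut at 0). Bone marrow stands highest for Dnmt1 and Uhrf1, blood lowest for Uhrf1, and lung highest for Tet2 and lowest for Tet3.

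Dnmt1, the copying enzyme, was highest in bone marrow and lymph node. Its 3 bone marrow libraries stood at 78.4, 75.8 and 77.2 TPM and the 3 lymph node libraries at 68.2, 70.9 and 70.3 TPM. Spleen followed at 43.6, 49.1 and 42.0 TPM and liver at 43.4, 37.8 and 35.8 TPM. The lowest organs were blood at 34.6, 35.0 and 32.5 TPM and lung at 32.9, 32.6 and 31.0 TPM. Bone marrow and lymph node did not overlap with any other organ, while lung and blood overlapped, as did liver and spleen.

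The means of Dnmt1 were 77.1 ± 1.31 TPM in bone marrow, 69.8 ± 1.43 in lymph node, 44.9 ± 3.74 in spleen, 39.0 ± 3.94 in liver, 34.0 ± 1.39 in blood and 32.2 ± 1.03 in lung (SD, n = 3 each). In that order, the step from lymph node to spleen was past the threshold (log2 difference 0.63, SE 0.08, limma adjusted p = 0.000105). The other steps did not pass, with adjusted p between 0.0865 and 0.487. Bone marrow exceeded lung by 1.24 (adjusted p = 9.69e-09) and blood by 1.16 (adjusted p = 3.89e-08) on the log2 scale. Lymph node exceeded lung by 1.09 (adjusted p = 3.71e-08) and blood by 1.02 (adjusted p = 8.16e-08), although its lead over blood became -0.09 (adjusted p = 0.38) once libraries were scaled to T cell genes, a scale described with the blood values below. Liver exceeded lung by 0.27 (adjusted p = 0.0226), a call that was lost without liver replicate 1 or lung replicate 3 (adjusted p = 0.0834 and 0.06) and with T cell scaling (0.01, adjusted p = 0.974).

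Uhrf1, the partner that recruits DNMT1, had the widest range of the 7. Bone marrow stood at 46.9, 51.1 and 50.7 TPM and lymph node at 23.4, 25.4 and 29.4 TPM. Spleen was uniform at 13.1, 12.8 and 11.6 TPM. Liver and lung were spread out, at 27.8, 12.7 and 7.87 TPM and at 8.84, 10.5 and 21.3 TPM. Blood was lowest at 3.4, 2.86 and 4.42 TPM. The blood libraries lay below, and the bone marrow libraries above, every library of the other organs.

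Mean Uhrf1 was 49.6 ± 2.31 TPM in bone marrow and 3.55 ± 0.794 TPM in blood (SD, n = 3), a log2 difference of 3.49 (SE 0.34, limma adjusted p = 1.08e-06). Lymph node exceeded blood by 2.58 (adjusted p = 1.71e-05), liver by 1.75 (0.000672), lung by 1.6 (0.00128) and spleen by 1.58 (0.00169). With libraries scaled to T cell genes, which raised the blood libraries, Uhrf1 was still lowest in blood, at 5.8 ± 1.34 scaled TPM, but the lead of spleen shrank to 0.81 (adjusted p = 0.0522). Bone marrow also exceeded spleen by 1.9 (adjusted p = 0.000594), lung by 1.89 (0.00033) and liver by 1.74 (0.00101). It stood above lymph node by 0.91, which did not pass (adjusted p = 0.0748). The call of lymph node over lung (0.99, adjusted p = 0.0303) was lost when lymph node replicate 1, 2 or 3 or lung replicate 1 or 2 was left out (adjusted p from 0.0507 to 0.125), and with T cell scaling (0.58, adjusted p = 0.21). Bone marrow is also the organ with the progenitor markers given above, and their part in these differences was not tested. Without bone marrow and blood, Uhrf1 did not pass the F test among the other 4 organs (adjusted p = 0.13), while Dnmt1, Dnmt3a, Tet2 and Tet3 did.

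Within a library, the ratio of Uhrf1 to Dnmt1 does not depend on how the library is scaled. It was 0.643 ± 0.0399 in bone marrow, 0.427 ± 0.229 in lung, 0.399 ± 0.218 in liver, 0.373 ± 0.04 in lymph node, 0.28 ± 0.0206 in spleen and 0.105 ± 0.028 in blood (SD, n = 3). Blood, at 0.0816 to 0.136, was below the 15 libraries of the other organs, of which the lowest was at 0.22. Blood and lung overlapped in Dnmt1 and did not overlap in the amount of Uhrf1 beside it. The ratios carry no test, since they were chosen after the values were seen and 3 against 3 libraries cannot go below p = 0.1 in an exact two-sided permutation test.

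As deposited, both maintenance genes correlated with the S phase genes over the 18 libraries, Dnmt1 less closely than Uhrf1. Scaled to T cell genes, mean Dnmt1 was higher in blood (55.5 scaled TPM) than in lymph node (52), and r was not computed on that scale. The mean log2 level of 23 S phase genes (Mcm2, Pcna, Rrm2 and others) was 5.44 in bone marrow, 4.63 in lymph node, 4.51 in liver, 4.37 in spleen, 4.31 in lung and 3.48 in blood. Pearson's r with that mean over the 18 libraries was 0.91 for Uhrf1 and 0.78 for Dnmt1, against 0.3 for Tet1, 0.25 for Dnmt3b, 0.11 for Dnmt3a, -0.23 for Tet3 and -0.32 for Tet2. These are descriptions: the 18 libraries fall into 6 groups of 3 that share an organ, and r over deviations from the organ means was -0.35 for Uhrf1 and -0.08 for Dnmt1. Liver replicate 3 had the lowest Uhrf1 of its organ (7.87 TPM) beside the highest S phase mean of the 3 (4.67). Uhrf1 was 1.31 log2 units below the S phase mean in blood, 0.12 above it in lymph node and 0.22 above it in bone marrow. Dnmt1 went the other way in blood, standing 1.65 above the S phase mean there, 1.52 in lymph node, 1.15 in spleen, 0.85 in bone marrow, 0.8 in liver and 0.74 in lung.

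**Figure D2:**
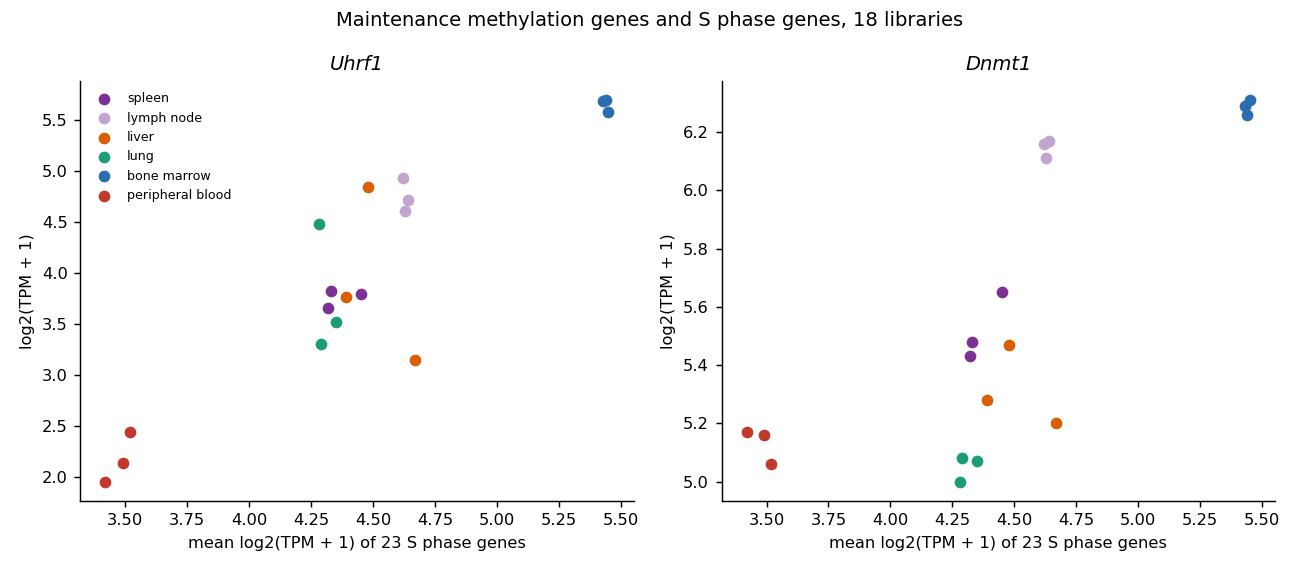
Level of Uhrf1 (left) and Dnmt1 (right) as log2(TPM + 1) against the mean log2(TPM + 1) of 23 S phase genes, with 1 point per library coloured by organ. Blood lies at an S phase mean of 3.42 to 3.52 with the lowest Uhrf1, and bone marrow at 5.43 to 5.45 with the highest, while Dnmt1 in lung is as low as in blood at a higher S phase mean.

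Dnmt3a, a de novo methyltransferase, was highest in lymph node. The lymph node libraries stood at 45.0, 45.3 and 53.8 TPM, spleen at 30.3, 36.0 and 30 TPM and liver at 30.2, 35.7 and 29.1 TPM. Bone marrow was at 21.6, 23.2 and 23.7 TPM and blood at 20.2, 23 and 25.1 TPM. Lung was the least uniform organ, since replicate 1 was at 31.8 TPM beside 13.5 and 17.2 TPM. No library of another organ reached the lymph node range, and spleen and liver lay above bone marrow and blood in every library.

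Mean Dnmt3a was 48.0 ± 4.99 TPM in lymph node, 32.1 ± 3.38 in spleen, 31.7 ± 3.57 in liver, 22.8 ± 1.11 in bone marrow, 22.8 ± 2.44 in blood and 20.8 ± 9.66 in lung (SD, n = 3). No step between neighbours in that order passed (adjusted p from 0.0977 to 1). Lymph node exceeded lung by 1.25 (SE 0.21, limma adjusted p = 0.000202), blood by 1.05 (0.00105) and bone marrow by 1.04 (0.0018). Scaled to T cell genes, the lead over lung was 0.84 (adjusted p = 0.00718), that over bone marrow 0.44 (0.126), and that over blood turned to -0.05 (0.877). The lead of lymph node over liver, 0.59 with adjusted p = 0.0491, was the weakest of the 47 calls and was lost in 15 of the 18 fits that left out a library. Spleen and liver exceeded lung by 0.69 (adjusted p = 0.0179) and 0.67 (0.0249), although the groups overlapped through lung replicate 1. Both calls were lost without lung replicate 2 (adjusted p = 0.0959 and 0.123) or lung replicate 3 (0.0634 and 0.0805), the first also without spleen replicate 2 (0.0685) and the second without liver replicate 2 (0.0761). With T cell scaling they were 0.47 (adjusted p = 0.108) and 0.41 (0.169). Bone marrow, the organ with the most Dnmt1, had the lowest Dnmt3a relative to it: the ratio of Dnmt3a to Dnmt1 was 0.275 to 0.308 there and 0.413 to 0.966 in the 15 libraries of the other organs.

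Dnmt3b, the other de novo enzyme, was measured at 1.23 to 7.5 TPM. Lymph node was at 7.5, 6.6 and 5.75 TPM and bone marrow at 6.67, 3.26 and 6.3 TPM. Blood stood at 2.95, 4.65 and 4.1 TPM, lung at 4.14, 3.3 and 2.56 TPM, spleen at 2.94, 3.3 and 3.35 TPM and liver at 6.16, 1.23 and 1.5 TPM. The liver values correspond to about 73, 12 and 17 reads if all came from the longest transcript, so the 2 low liver libraries rest on few reads. A single pair passed, lymph node over liver (1.15, SE 0.36, adjusted p = 0.0243), with overlapping groups. That call was lost without lymph node replicate 1 or 2 or liver replicate 2 or 3 (adjusted p from 0.0629 to 0.0991). The F test of Dnmt3b passed without liver replicate 1 (adjusted p = 0.000982). Dnmt3l, a cofactor of the DNMT3 enzymes in germ cells, had a mean of at most 0.863 TPM (in bone marrow) and was not tested.

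Tet2 and Tet3 were the main TET transcripts, and they were ordered differently across organs. Tet3 stood at 45.2, 46.4 and 44.2 TPM in lymph node, 34.4, 35.2 and 37.3 TPM in blood and 40.2, 32.4 and 30 TPM in liver. It was at 27.9, 24.4 and 26.5 TPM in spleen and 24, 22.6 and 21.9 TPM in bone marrow. Lung was lowest, at 17.2, 16.7 and 15.4 TPM, below the 15 other libraries. Tet2 was highest where Tet3 was lowest. Its lung libraries stood at 36.9, 42.7 and 36.0 TPM, above every other library. Lymph node (30.4, 31.8 and 32.6 TPM), blood (27.8, 28.6 and 33.5 TPM) and liver (27.7, 33.9 and 19.6 TPM) overlapped one another for Tet2. Bone marrow was at 23.2, 21.7 and 23 TPM and spleen lowest at 19.1, 20.8 and 16.6 TPM.

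Lung had less Tet3 than each of the 5 other organs. On the log2 scale, lymph node exceeded lung by 1.41 (SE 0.11, limma adjusted p = 2.77e-08), blood by 1.07 (5.26e-07), liver by 1.01 (2.6e-06), spleen by 0.65 (0.000146) and bone marrow by 0.45 (0.00253). The difference to bone marrow was 0.25 with median-ratio scaling (adjusted p = 0.0743), and the others stayed past the threshold under each of the 3 other scalings tried. Mean Tet3 was 45.3 ± 1.11 TPM in lymph node, 35.7 ± 1.52 in blood, 34.2 ± 5.31 in liver, 26.3 ± 1.74 in spleen, 22.9 ± 1.08 in bone marrow and 16.4 ± 0.932 in lung (SD, n = 3). The steps from blood to liver (adjusted p = 0.658) and from spleen to bone marrow (0.231) did not pass, and the 3 remaining steps between neighbours did. That from liver to spleen (0.36, adjusted p = 0.0172) was lost without spleen replicate 2 or liver replicate 1 (adjusted p = 0.0695 and 0.0656). Which of lymph node and blood had more Tet3 depended on the scaling: lymph node was higher by 0.34 as deposited (adjusted p = 0.02) and lower by 0.77 when scaled to T cell genes (log2 difference -0.77, adjusted p = 2.14e-05). As deposited, this call was also lost without lymph node replicate 1 or 2 or blood replicate 1 or 2 (adjusted p from 0.0543 to 0.0686). Blood exceeded bone marrow by 0.62 (adjusted p = 0.000289).

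Mean Tet2 was 38.5 ± 3.67 TPM in lung, 31.6 ± 1.08 in lymph node, 30 ± 3.1 in blood, 27.1 ± 7.16 in liver, 22.6 ± 0.86 in bone marrow and 18.8 ± 2.11 in spleen (SD, n = 3), with no step between neighbours past the threshold (adjusted p from 0.176 to 0.759). Lung exceeded spleen by 1.0 (SE 0.16, limma adjusted p = 9.03e-05), bone marrow by 0.74 (0.00118) and liver by 0.52 (0.0165). The lead over liver was lost without liver replicate 3 or lung replicate 2 (adjusted p = 0.0679 and 0.0622). Spleen was also below lymph node by 0.72 (adjusted p = 0.00512), blood by 0.65 (0.00385) and liver by 0.47 (0.0299), the last lost without spleen replicate 1 or 3 or liver replicate 1 or 2 (adjusted p from 0.0591 to 0.129). Lymph node exceeded bone marrow by 0.46 as deposited (adjusted p = 0.0433), which was -0.13 (0.53) when scaled to T cell genes. That call was lost in 9 of the 18 fits that left out a library, including all 6 that left out a lymph node or bone marrow library (adjusted p from 0.0533 to 0.128).

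The ratio of Tet2 to Tet3 set lung apart. It was 2.15 to 2.56 in the lung libraries (mean 2.35 ± 0.209, SD, n = 3) and at most 1.05 in the other 15. The means elsewhere were 0.992 ± 0.0527 in bone marrow, 0.839 ± 0.0507 in blood, 0.797 ± 0.216 in liver, 0.721 ± 0.116 in spleen and 0.698 ± 0.034 in lymph node. Lung libraries also held lung epithelium markers (6 genes) at 225 to 300 TPM in sum, against 16.4 to 31.4 TPM elsewhere. Of these 6, Scgb1a1 had the highest mean over organs (37.6 TPM). Markers of mature neutrophils and monocytes summed to 1820 to 1880 TPM in lung, against 51.3 to 777 TPM in spleen, lymph node and liver and more in bone marrow and blood. The part of either kind of RNA in the ratio was not tested. The 3 Tet genes together amounted to 1.1 ± 0.0617 times the 3 Dnmt genes in blood, 1.03 ± 0.197 in lung, 0.86 ± 0.085 in liver, 0.649 ± 0.0254 in lymph node, 0.604 ± 0.0192 in spleen and 0.454 ± 0.0184 in bone marrow. In blood every library had more Tet than Dnmt transcript (1.04 to 1.17), and lung ran from 0.823 to 1.21. No library of liver (at most 0.927), lymph node (0.672), spleen (0.626) or bone marrow (0.433 to 0.467) did.

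**Figure D3:**
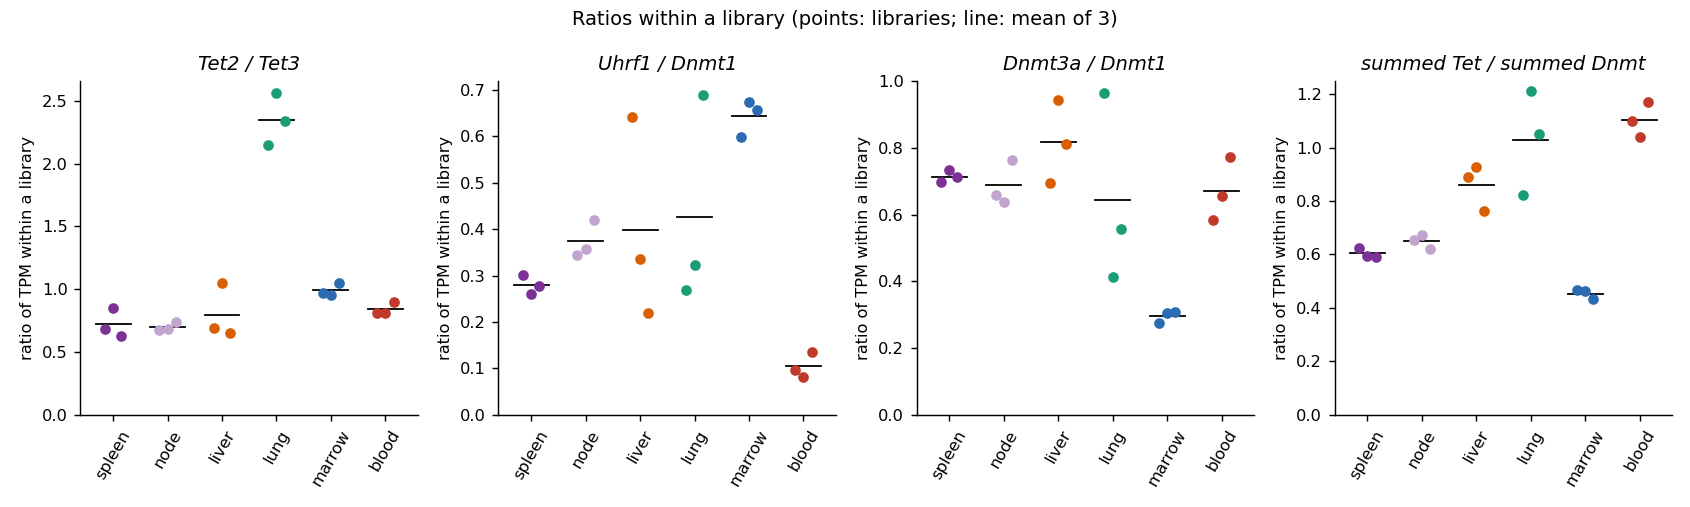
Ratios of TPM within a library (vertical axes, own scale per panel) for Tet2 to Tet3, Uhrf1 to Dnmt1, Dnmt3a to Dnmt1 and the summed Tet genes to the summed Dnmt genes, by organ. Points are libraries and lines the mean of 3. Lung stands above 2.15 for Tet2 to Tet3, blood below 0.136 for Uhrf1 to Dnmt1, and bone marrow at or below 0.308 for Dnmt3a to Dnmt1.

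Tet1, the third dioxygenase, was scarce in all organs. Its means were 3.87 ± 0.483 TPM in lymph node, 3.32 ± 3.63 in spleen, 2.36 ± 1.07 in liver, 2.3 ± 0.774 in bone marrow, 1.71 ± 1.04 in lung and 1.29 ± 0.256 in blood (SD, n = 3). The spleen mean came from replicate 2, at 7.51 TPM beside 1.06 and 1.4 TPM in the others. Lymph node was uniform at 3.34, 4.29 and 4.0 TPM, above all libraries except spleen replicate 2. The largest difference, lymph node over blood, was 1.09 (SE 0.46, adjusted p = 0.0792). With library weights, an alternative fit that counts scattered libraries less, the F test of Tet1 passed (adjusted p = 0.024). The lowest library, lung replicate 2, corresponds to about 33 reads of the longest transcript.

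By pair of organs, the members were called as follows. Lymph node exceeded liver, lung and blood in 4 of 7 members each, with none lower, where 21.6%, 27.4% and 21% of all tested genes were higher in lymph node (31.1%, 42.3% and 37.4% called in either direction). It exceeded bone marrow in 3 of 7 (8.89% of all genes higher, 22.5% called) and spleen in 3 of 7 (9.87% higher in lymph node, 14.3% called). The median log2 difference over the 7 members was 1.02 for lymph node minus blood and 0.99 for lymph node minus lung, against 0.15 and 0.2 over all tested genes. Bone marrow was above blood for Dnmt1 and Uhrf1 and below it for Tet3 (31.8% of all genes called). Lung and bone marrow differed in 4 members (43.5%), with Dnmt1, Uhrf1 and Tet3 lower and Tet2 higher in lung. Liver and blood differed in Uhrf1 alone (39.4%), spleen and bone marrow in Dnmt1 and Uhrf1 (24.1%), and lung and blood in Uhrf1 and Tet3 (43.7%). Spleen differed from lung and from blood in 4 members each (40.8% and 35.4%) and from liver in 2 (31.3%). Liver differed from lung in 4 (34.9%) and from bone marrow in 3 (34.5%).

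**Figure D4:**
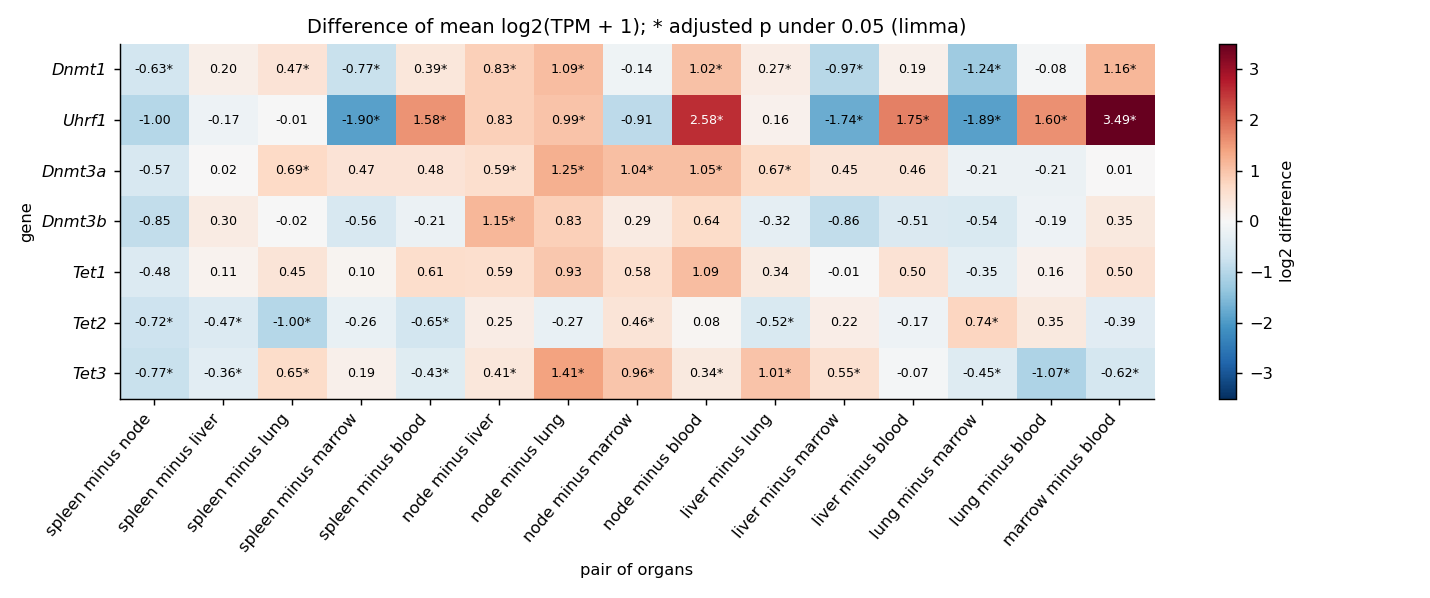
Difference of mean log2(TPM + 1) for the 7 genes (rows) in the 15 pairs of organs (columns), as first organ minus second. Red is higher and blue lower in the first organ, and a star marks an adjusted p under 0.05. The strongest colours are those of Uhrf1 against blood, up to 3.49 for bone marrow.

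The levels in blood depended on what they were set against. Since T cell transcripts took a smaller share of blood libraries, each library was also scaled so that 20 T cell genes had the same mean log2 level. That multiplied blood by 1.62 to 1.64, bone marrow by 1.12 to 1.16 and lymph node by 0.738 to 0.75, and it shifted the median of all genes in the organ minus blood comparisons from between -0.12 and 0.15 to between -0.31 (bone marrow) and -0.89 (liver). On that scale blood had the highest means of 4 members among the 6 organs. They were Tet3 (58.1 ± 2.76), Tet2 (48.9 ± 5.33), Dnmt3a (37.1 ± 4.06, beside 35.8 ± 3.44 in lymph node) and Dnmt3b (6.37 ± 1.4, beside 6.2 ± 2.21 in bone marrow), though Tet2 in lung minus blood was -0.33 with adjusted p = 0.0758. In Dnmt1 it ranked after bone marrow (55.5 ± 1.92 against 88.3 ± 2.7, SD, n = 3). Dnmt1 in spleen went from 0.39 above blood (adjusted p = 0.00179) to 0.51 below it (log2 difference -0.51, adjusted p = 8.03e-05), where the median gene stood at -0.75. Of the members called between lymph node and blood, the split went from 4 higher and 0 lower in lymph node to 1 higher (Uhrf1) and 2 lower. Over all tested genes it went from 3504 higher and 2745 lower (of 16694) to 324 and 9742 (of 16979). Between lymph node and bone marrow the members went from 3 and 0 to 1 and 2, and all tested genes from 1484 and 2280 to 318 and 7331. Between lymph node and lung the members went from 4 and 0 to 3 and 1, with this scaling and with median-ratio scaling. All tested genes went from 4577 and 2489 to 2271 and 4087, or to 2964 and 3414 with median-ratio scaling. Between lymph node and liver, 1 member call was left with either of these scalings, and none was lower in lymph node. There all tested genes went from 3612 and 1577 to 2194 and 1962, or to 2075 and 2243 with median-ratio scaling. Median-ratio scaling moved the median of all genes in lymph node minus liver from 0.19 to 0.03 and in lymph node minus lung from 0.2 to 0. The lower Uhrf1 in blood, the lower Tet3 in lung and the higher Dnmt1 in bone marrow than in the other organs except lymph node kept their direction under each of the 4 scalings. The part of neutrophil and monocyte RNA in the blood and bone marrow values of the 7 genes was not tested.

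**Figure D5:**
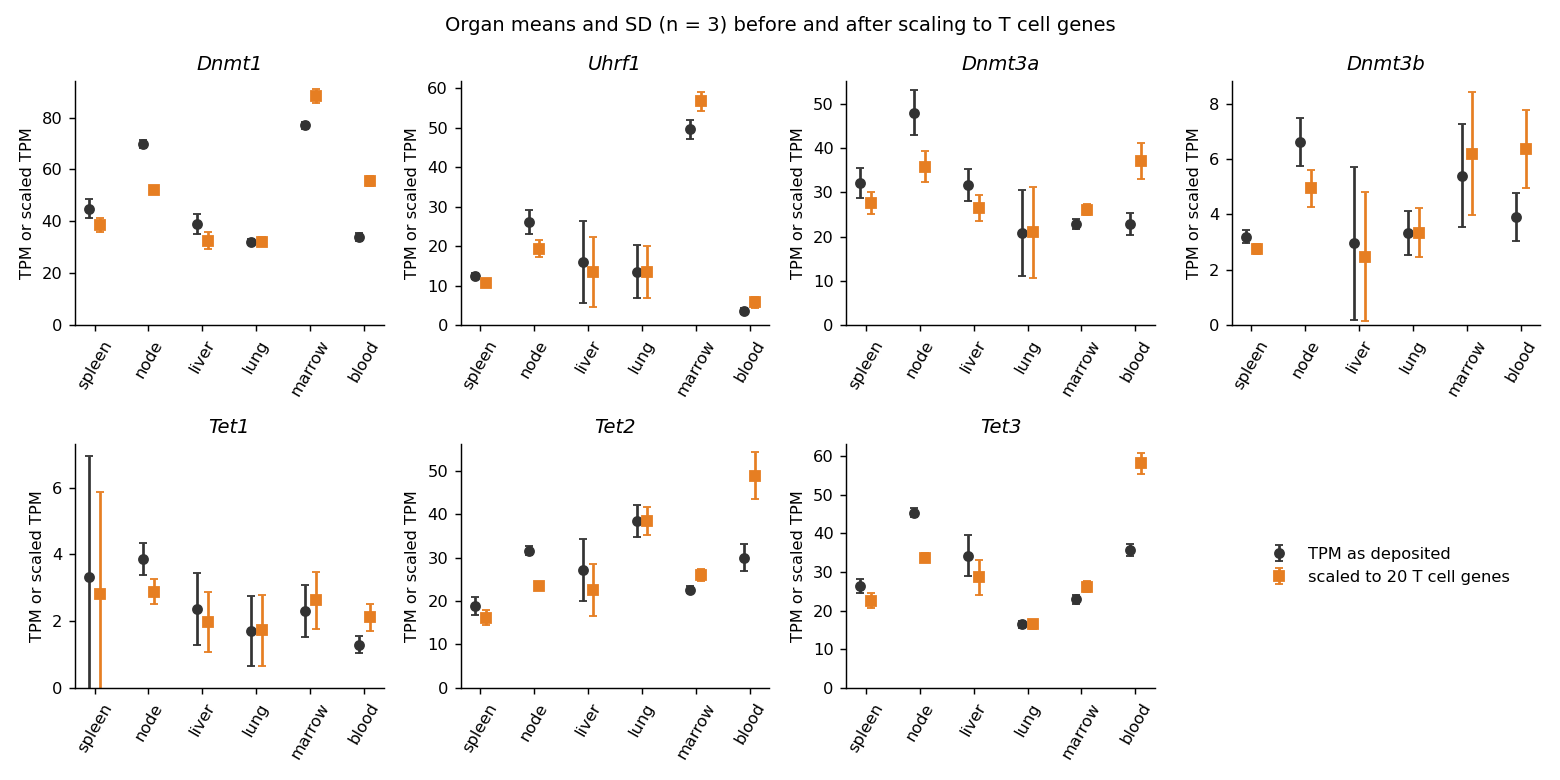
Organ means and SD (n = 3) of the 7 genes as deposited (dark circles, TPM) and after scaling each library to 20 T cell genes (orange squares, scaled TPM). Blood rises and lymph node falls with the scaling, so that blood moves from below lymph node to above it for Tet3 (58.1 against 33.7) while Uhrf1 remains lowest in blood (5.8).

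The partners of maintenance methylation were measured beside Dnmt1 and Uhrf1. Of 9 listed genes, 7 were tested and all 7 differed among organs, against 68% of all genes. Bone marrow exceeded blood in 6 of the 7, where 18.8% of all genes were higher in bone marrow (median log2 difference 1.25, against 0.11 over all genes). With T cell scaling, 4 were higher and 1 lower, beside 1356 higher and 5441 lower of all 16979 genes then tested. Lig1, the ligase that joins replicated DNA, was at 57.9 ± 2.31 TPM in bone marrow and 9.53 ± 2.19 TPM in blood. Cdca7l, a relative of the CDCA7 protein that works with the remodeller HELLS, was at 36.2 ± 3.49 TPM in bone marrow, 14.6 ± 0.0513 in blood and 10 ± 3.05 in lung. Uhrf2, the paralog of Uhrf1, did not share its pattern: it was highest in liver (136 ± 28.6 TPM) and lung (123 ± 14.1 TPM), and lung exceeded lymph node (75.9 ± 3.1 TPM) by 0.68 (SE 0.14, limma adjusted p = 0.0013). In each organ Uhrf2 was above Uhrf1 in mean TPM. Trim28, a corepressor that protects imprinted methylation, had 206 ± 25.1 TPM in spleen and 125 ± 8.31 TPM in blood. Dppa3 and Zfp57 were not tested, with means of at most 0.0633 and 0.463 TPM.

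The genes listed for demethylation and base excision, not all of which act after TET oxidation, did not move one way. Of 16 genes for demethylation and base excision, 15 were tested and 12 differed among organs (80%, against 68% of all genes). Between lymph node and lung, 5 were higher and 5 lower in lymph node, beside 4577 higher and 2489 lower of all 16694 tested genes. The median log2 difference was 0.55 against 0.2 over all genes. Tdg, the glycosylase that removes oxidised methylcytosine, was at 62.2 ± 14.1 TPM in lung and 22.7 to 34.6 TPM on average elsewhere, and lung exceeded lymph node by 0.8 (SE 0.2, limma adjusted p = 0.00357). Neil1, a glycosylase that can follow TDG, was at 75.5 ± 2.09 TPM in lung against 18.4 ± 1.19 TPM in lymph node (1.98 higher in lung, adjusted p = 1.83e-07). Xrcc1, the scaffold of base excision repair, was lowest in lung, at 14.9 ± 4.49 TPM. Of the stress-induced Gadd45 genes, which have been linked to active demethylation, Gadd45b stood at 355 ± 17.1 TPM in liver and 347 ± 17.4 TPM in lung but 29.9 ± 2.17 TPM in lymph node. The log2 difference of lung over lymph node was 3.49 (SE 0.11, adjusted p = 1.49e-12). Gadd45g was highest in lung (126 ± 14.8 TPM) and Gadd45a in bone marrow (125 ± 7.81 TPM) and blood (103 ± 6.36 TPM). Ogt, the glycosyltransferase that binds TET proteins, was highest in blood (300 ± 10.6 TPM) and lymph node (271 ± 7.87 TPM), with the lowest mean in lung (150 ± 11.1 TPM). The differences between lung and lymph node given for Uhrf2, Tdg, Neil1 and Gadd45b kept their direction and call under each of the 4 scalings.

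All 7 genes listed as readers of methylated CpG or as members of their families differed among organs, as did 68% of all tested genes. Mbd3, a subunit of the NuRD complex, was listed as a family member and not as a reader. It ranged from 137 ± 3.01 TPM in lymph node to 39.6 ± 2.44 TPM in lung, a log2 difference of 1.77 (SE 0.11, limma adjusted p = 3.21e-09). Zbtb33 was at 25.1 ± 1.52 TPM in lung and 11.6 ± 0.275 TPM in spleen (1.05 higher in lung, adjusted p = 8.7e-06). Mbd2 varied little, between 156 and 197 TPM on average. Among 10 genes that supply the methyl donor S-adenosylmethionine, 7 differed, a share close to that of all genes (70% against 68%). Shmt2, the mitochondrial serine hydroxymethyltransferase, was at 89.4 ± 2.37 TPM in lymph node and 25.6 ± 4.91 TPM in lung (1.78 higher in lymph node, adjusted p = 6.6e-08). Mat2a, which makes the donor itself, stood between 87.7 ± 2.57 TPM in bone marrow and 128 ± 13 TPM in blood. Of 8 genes listed for 2-oxoglutarate supply and for metabolites that compete with it, 7 differed (87.5%, against 68% of all genes). Idh1, which makes 2-oxoglutarate in the cytosol, was at 68.0 ± 1.34 TPM in blood and 5.11 ± 0.788 TPM in lymph node (3.5 higher in blood, adjusted p = 8.86e-05). Blood is also the organ of high neutrophil and monocyte markers, whose part in the Idh1 value was not tested.

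Division genes differed in every case, 23 of 23 for S phase and 12 of 12 for mitosis, and all 35 were higher in bone marrow than in blood (34 with T cell scaling). Of all tested genes, 68% differed among organs and 18.8% were higher in bone marrow than in blood (1356 of 16979 with T cell scaling). Mki67 stood at 81.0 ± 3.14 TPM in bone marrow and 6.58 ± 0.3 TPM in blood. Of the de novo partners, Nsd1, a histone H3 lysine methyltransferase, differed among organs (63.4 ± 2.68 TPM in lymph node, 37.2 ± 4.19 TPM in spleen). Setd2, another, stood between 61.5 ± 14.4 TPM in spleen and 94.4 ± 19.8 TPM in liver (F test adjusted p = 0.095). The 6 genes known for demethylated regions in Treg cells all differed, by the F test that 68% of all genes passed. Foxp3 was highest in lymph node (239 ± 2.14 TPM) and lung (230 ± 7.65 TPM) and lowest in blood (88.6 ± 3.39 TPM). Ctla4, a checkpoint receptor, ran from 134 ± 6.98 TPM in blood to 1490 ± 59.7 TPM in lung. Germline genes that promoter methylation silences in body cells stayed near 0: 9 of 10 had too low a mean to be tested, and the tenth, Brdt, had at most 1.03 ± 0.804 TPM, in spleen.

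The genes most like each member across the 18 libraries were ranked by Pearson's r of log2(TPM + 1), as a description. The closest to Dnmt1 were Tuba1b (r = 0.963), Sp6, Smarca4, Tubb5 and Mcm5 (0.932). Tuba1b, an alpha tubulin, was at 516 ± 20 TPM in bone marrow, 384 ± 11 in lymph node and 178 ± 11.4 in blood. Those closest to Uhrf1 were Mcm2 (r = 0.941), a subunit of the replicative helicase, then Cdca3, Stmn1, Phldb3 and Ssrp1 (0.913). Of the Tet genes, Tet3 was closest to Foxk1 (r = 0.928), Pik3cd, Pnisr, Arhgap27os3 and Usp40, and Tet2 to Usp9x (r = 0.927), Bdp1, Mier1, Wasf2 and Smad7. Pik3cd, the leukocyte PI3K subunit p110 delta, was at 252 ± 3.2 TPM in lymph node and 87.6 ± 8.64 TPM in lung. Smad7, an inhibitor of TGF-beta signalling, was at 77.1 ± 1.64 TPM in lung and 30 ± 0.36 TPM in bone marrow. Dnmt3a was closest to Aoc2 (r = 0.856), Ipcef1, Slc2a4rg-ps, Fyn and Hivep3, and Fyn, a Src-family kinase, was at 355 ± 5.62 TPM in lymph node against 167 ± 6.7 TPM in blood. Dnmt3b was closest to Polr1b, Sec22c, Pigo, Fam219b and Nol6 (r = 0.837 to 0.759), and Tet1 to Adck2, Mdc1, Nup93, Acad9 and Dgcr6 (0.774 to 0.682), below the values of the other members. Among the members themselves, Dnmt1 and Uhrf1 were the most alike (r = 0.81), followed by Dnmt3a and Tet3 (0.67), while Tet2 and Tet3 had r = -0.04.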

How the data were processed

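Per the submitters' processing notes, STAR, RSEM and the mm10 build were used, with no versions or settings. The annotation, and whether counting used strand, are not given in the sources used here. The authors deposited 1 table per library of TPM values, which are shares of a fixed total per library (sums of 999999.27 to 1000000.62) and keep no depth. No table repeated another. Symbols from GENCODE M21 matched 55141 of 55487 IDs.

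Levels were compared with limma 3.58.1 in R 4.3.3 on log2(TPM + 1), with a pseudocount of 1, so differences understate changes of low genes. Tested were 16694 genes whose mean reached 1 TPM in some organ. All 18 libraries entered 1 model with a mean per organ and no covariate (eBayes with trend and robust settings, checked on simulated data). An F test and 15 pairwise contrasts had Benjamini-Hochberg adjustment across the tested genes, with calls made below 0.05. The deposited unit being TPM, the planned form for TPM applied.

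Depth was estimated by the spacing of low values in 12107 genes with 1 transcript, where 70.0% to 89.3% of values up to 8 reads fell within 0.1 of a whole read. The variance between replicates was 2.32 to 8.5 times counting noise, an excess that may be technical. Each library counted as 1 sample, although the origin of the replicates is not given.

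Named were the 7 members, the 5 genes most correlated with each (among genes with an organ mean of at least 10 TPM and a log2 range of at least 1, with numbered, receptor and unnamed genes left out) and, per pathway list, up to 6 of the most expressed or most often called genes. Idh1, Lig1, Tdg, Neil1, Xrcc1, Dppa3 and Zfp57 fall outside that rule and were chosen after their values were seen. The members and lists were chosen with earlier results of these data known. Alternatives were 3 other scalings (median ratio, 20 T cell genes, and abundant RNA classes removed), a pseudocount of 0.1, no filter, library weights, plain eBayes, a replicate block, subsets of organs and leaving out each library.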

Additional observations from a re-analysis of the deposited data

How the results depend on the processing

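The 5 members called among organs stayed between 4 and 7, and the 47 calls between 43 and 51 over the alternatives other than leaving out a library and between 42 and 54 when a library was left out. Median-ratio scaling kept 39 of the 47, lost 8 and gained 4. Scaling to T cell genes kept 32 of the 47, lost 13, gained 15 and called 2 in the opposite direction. Those 2 were Dnmt1 in spleen minus blood (-0.51) and Tet3 in lymph node minus blood (-0.77). Of the 13 lost, 3 had a sign opposite to before without passing: Dnmt1 (-0.09) and Dnmt3a (-0.05) in lymph node minus blood and Tet2 in lymph node minus bone marrow (-0.13). The cause was not tested. With library weights all 7 members were called (Dnmt3b 0.0191, Tet1 0.024), and Dnmt3b also with T cell scaling (0.0211) and, in a fit chosen after seeing the data, without the 3 liver libraries (0.0196). Without blood and bone marrow, 4 members (not Uhrf1) and 7547 genes were called, against 11348, in fewer libraries. With only the 2 organs compared, 39 of the 47 calls were kept.

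The replicate numbers did not pair the libraries (r of deviations from -0.03 to 0.03 over 45 same-numbered pairs, with 0 over 0.1). A fit with the replicate block called 46 of the 47, without Dnmt3a in lymph node minus liver (0.59, adjusted p = 0.0692). Dnmt3b in the 2 low liver libraries rests on about 12 and 17 reads and Tet1 in the lowest lung library on about 33, and the effect of depth on their calls was not tested.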
